A study of Danio rerio with 5 samples.

Results

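In whole zebrafish larvae, called accessible regions were packed into 20 dense clusters inside 13 chromosomes, and these clusters are described here across uhrf1 hi272 mutants and their siblings. The members were chosen by the positions of the called peaks in these same lists, so their density, spacing and number are a description and carry no test. Peaks of the 5 lists on chromosomes 1 to 25, chromosome 4 left out, were merged where they overlapped by at least 1 bp. Neighbouring regions no more than 50 kb apart were chained, chains of at least 10 regions were kept, and chains reaching into the 2 Mb at either end of a chromosome were to be dropped, which removed 0 chains. The members are the 490 merged regions of these chains, out of 1326 merged regions in the whole series. Chromosome ends were read from the highest coordinate in the lists, and coordinates are given on GRCz10, counted from 1.

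ATAC-seq measures accessibility through the Tn5 transposase, which cuts and tags DNA where nucleosomes do not shield it. A peak is a stretch where tagged fragments are more frequent than in the background of the same library. Closely spaced accessible sites are known from loci with many regulatory elements or many neighbouring genes, such as gene clusters and large regulatory domains. UHRF1 binds hemimethylated CpG sites after replication and brings in the maintenance methyltransferase DNMT1, and zebrafish that lack it lose DNA methylation. No genome or annotation of the build was used, so genes, repeats and base composition in the clusters were not analysed here.

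The libraries were 3 from sibling control larvae and 2, numbered 1 and 3, from uhrf1 hi272 mutants, all of the ABNYU strain at 120 hpf (5 days). The hi272 allele is a retroviral insertion in uhrf1, and the series' design calls the siblings normal in phenotype without giving their genotype. Each library was made from 50000 live cells of whole trypsin-dissociated larvae, a mixture of all cell types. The sources differ on the animals behind a library. The design describes pooled larvae, 3 for each genotype, while the protocol names 10 embryos and cells taken from each embryo, and also mentions livers. Whether a library is 1 animal or a pool is therefore not settled, and p-values measure only the spread between these libraries. The complete lists held 766 and 1191 peaks in mutants 1 and 3, and 806, 1229 and 1374 peaks in controls 1, 2 and 3. The read depth of the libraries was not analysed here and is unknown.

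The lists differed in the shortest peak they hold, and the counts of shared regions were repeated with only peaks of at least 162 bp, a setting chosen after seeing the data. It left 255 common members in place of 275, and 1 member called in both mutants and no control in place of 3. The member regions stayed fixed, so the common count could only fall. The share of all merged regions called in both mutants and no control was not computed here. How much of the counts goes with peak length is therefore not settled. The shortest peak was 139 bp in control 1 and 162 bp in mutant 1. It was 107 bp in control 2, 97 bp in control 3 and 94 bp in mutant 3. The lists numbered 1 thus began at longer peaks than the other three. In the clusters, 20.9% of mutant 3 peaks, 20.3% of control 3 peaks and 15.9% of control 2 peaks were shorter than 162 bp, against 8.62% in control 1 and 0% in mutant 1.

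The clusters took up a very small part of the genome and held a large part of its peaks. Together they spanned 1.72 Mb, which is 0.139% of the 1242 Mb covered by the 24 chromosomes considered, and held 2408 of the 5366 peaks of the series. The merged regions filled 520.04 kb, or 30.2% of that span. Peaks of a single library covered 18.8% of the span in control 1, 21.3% in control 2, 19.3% in control 3, 22.1% in mutant 1 and 19.6% in mutant 3. Chromosomes 16 and 17 carried 3 clusters each, chromosomes 5, 8 and 10 carried 2 each, and 8 further chromosomes carried 1. The other 11 chromosomes had none. Cluster centres lay between 26.7% and 88.7% of the way along their chromosomes.

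**Figure D1:**
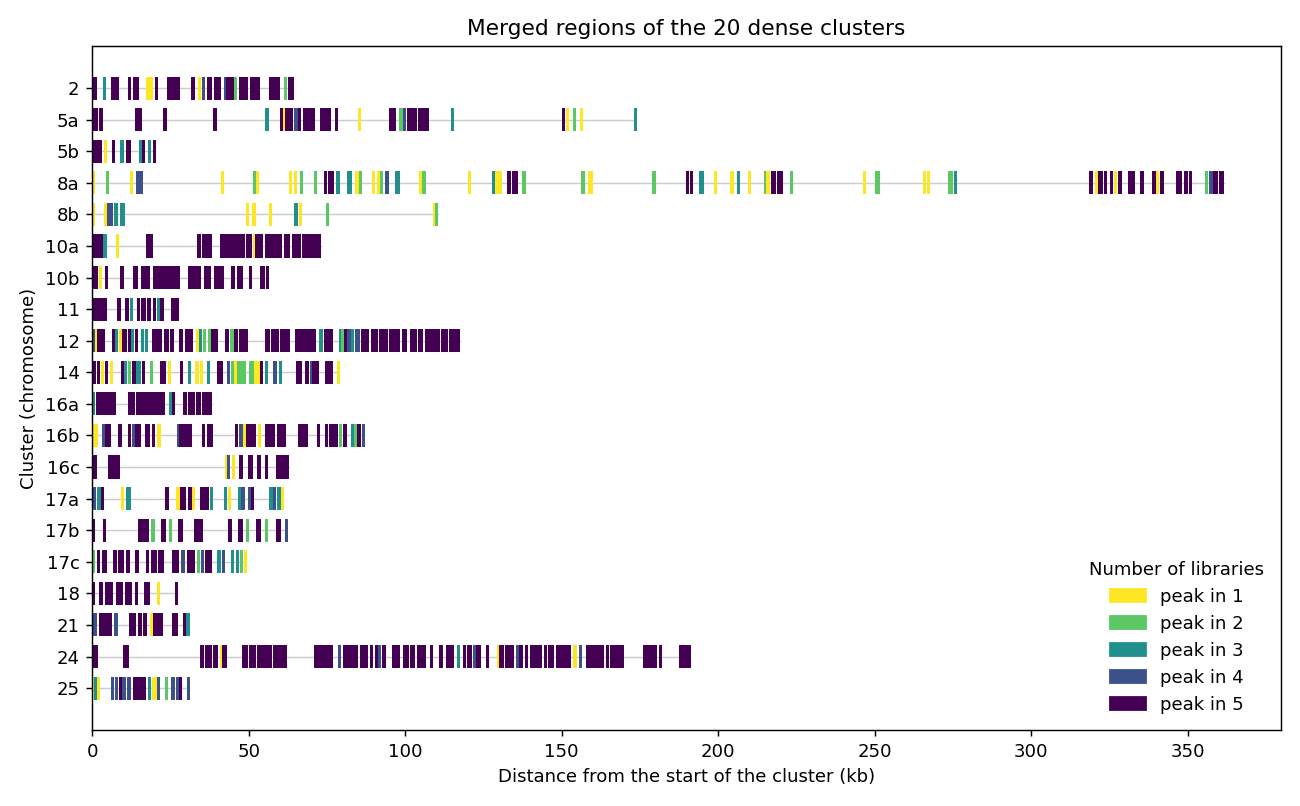
Map of the 490 member regions in the 20 clusters, by distance from the start of each cluster in kb. Rows are named by chromosome, with letters in order along it, and regions narrower than 0.7 kb are drawn 0.7 kb wide. Colour gives the number of libraries with a peak, and the row of the first chromosome 8 cluster, 362 kb long, holds more single-library regions than any other row (26 of 78).

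Within clusters the regions followed each other every few kb. The median gap between neighbours was 1058.5 bp, and 222 of the 470 gaps (47.2%) were under 1 kb. A gap above 10 kb occurred 21 times, and the longest was 42.6 kb. Measured from centre to centre, the median spacing was 2346 bp with quartiles of 1524.5 and 3552 bp. By cluster the median spacing ran from 1282.5 bp on chromosome 25 (26035018 to 26065693) to 4152 bp in the first chromosome 10 cluster (12095530 to 12168563). These distances belong to the rule that formed the clusters and are given as a description.

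Clusters differed in how evenly their regions were spaced. The coefficient of variation of spacing was 0.34 in the third chromosome 17 cluster (45193106 to 45242204), whose 22 regions lay 2159.5 bp apart in the median. It was 0.35 in the second chromosome 5 cluster (57957216 to 57977396) and 0.40 in the first chromosome 16 cluster (15763417 to 15801645). The chromosome 18 cluster (31588338 to 31615217) had 10 regions and the narrowest quartiles, 2620.5 and 3088 bp. Spacing was least even in the third chromosome 16 cluster (26005876 to 26068674), with a coefficient of 1.64 and a single gap of 33.7 kb inside a span of 62.8 kb. The second chromosome 8 cluster (34989093 to 35099497) had 1.45, the first 1.42 and the first chromosome 5 cluster (52639405 to 52812668) 1.17.

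**Figure D2:**
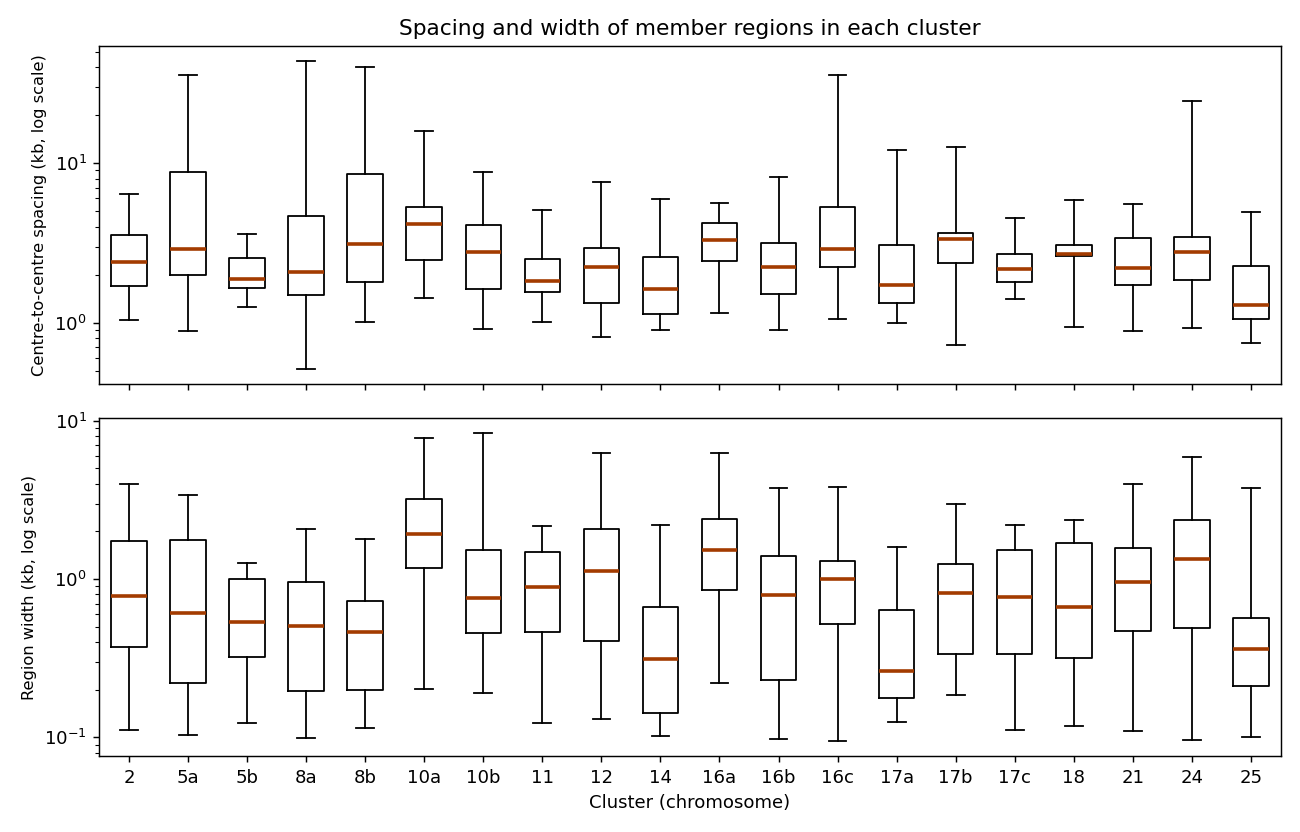
Centre-to-centre spacing (upper panel) and width (lower panel) of member regions in each cluster, both in kb on log scales. Boxes give quartiles, red lines medians and whiskers the lowest and highest value; median width runs from 262 bp in the first chromosome 17 cluster to 1935 bp in the first chromosome 10 cluster.

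Member regions were of very unequal width. The median was 644 bp and the range 95 to 8347 bp, with 72 regions above 2 kb and 135 under 300 bp. The widest lay on chromosome 10 at 16846428 to 16854774. It was 1 peak in control 1 and in mutant 1, but 3 peaks in control 2, 5 in mutant 3 and 6 in control 3. Its peaks covered 5735, 7376 and 5369 bp in controls 1, 2 and 3, and 6990 and 5181 bp in mutants 1 and 3. The same stretch was therefore listed whole in some libraries and in pieces in others. Its fold enrichment over background, a ratio given by the authors for each peak, was 2.18 to 2.50. Where a library listed a region in several peaks, the fold of the region here and below is that of its highest peak. A library that listed more pieces had more values to take it from. Taking 1 region per cluster, the next widest were 7786 bp on chromosome 10 (12136550 to 12144335) and 6262 bp on chromosome 16 (15777637 to 15783898). Then came 6244 bp on chromosome 12 (14351829 to 14358072) and 5863 bp on chromosome 24 (12299582 to 12305444). The first chromosome 10 cluster held a further region of 5873 bp, 12162691 to 12168563. All had a peak in all 5 libraries at folds between 1.57 and 2.46.

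In the fullest clusters a large part of the span was called. The chromosome 24 cluster (12228574 to 12419693) had the most covered length, with 52 regions over 191 kb and 44.8% of its span in merged regions. Its peaks covered 61.2, 56.8 and 53.3 kb in controls 1, 2 and 3, and 72.2 and 63.5 kb in mutants 1 and 3. Both mutants were above every control in kb. As a share of the covered length of the library's whole list, control 1 with 8.31% lay above mutant 3 with 8.08%. All 5 libraries shared 43 of its 52 regions, and 3 regions were called in mutant 3 alone. The first chromosome 16 cluster was the fullest of all, with 63.5% of its 38.2 kb in 12 merged regions, followed by the chromosome 12 cluster (14286777 to 14404212) with 57.3% of 117 kb in 50 regions. The first chromosome 10 cluster had 50.7%, the chromosome 21 cluster (25802670 to 25833061) 49.7%, the second chromosome 10 cluster (16826779 to 16883040) 47.3% and the chromosome 2 cluster (19774021 to 19838281) 44.6%.

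The first chromosome 8 cluster (34517307 to 34878864) had the most regions and the longest span, 74 over 362 kb, and divided into unlike sections at its longest gap. Its peaks covered 14.9, 34.0 and 26.7 kb in controls 1, 2 and 3, and 22.5 and 17.3 kb in mutants 1 and 3, so both mutants lay inside the control range. The division was chosen after its values were seen. Before the gap, 54 regions lay over 276 kb, 8 of them with a peak in all 5 libraries and 23 with a peak in a single library. After it, 20 regions lay over 42.9 kb, 15 of them in all 5 libraries. In the first section 9 regions had a peak in control 1, 43 in control 2, 36 in control 3 and 16 in each mutant. In the second section the same libraries had 16, 18, 16, 16 and 18. The libraries thus ranged more widely in the long sparse section than in the short dense one.

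The second chromosome 8 cluster lay 110 kb further on and was the least recurrent. Its peaks covered 0.234, 4.98 and 4.46 kb in controls 1, 2 and 3, and 1.01 and 0.465 kb in mutants 1 and 3. Its 13 regions had 0 with a peak in all 5 libraries and 7 with a peak in a single one, control 2 for 4 of them and control 3 for 3. Its peaks were weak. The median −log10 q, given by the authors for each peak, was 0.49, 0.27 and 0.58 in controls 1, 2 and 3. It was 0.41 in mutant 1 and 3.46 in mutant 3. These medians rest on 1, 11 and 9 peaks in controls 1, 2 and 3, and on 2 peaks in each mutant. In the controls and mutant 1 that median lies at a q above 0.05. The strongest region of the cluster, 34993845 to 34995637, had a fold enrichment of 1.84 in control 1 and 1.93 in control 2. The region had 1.90 in control 3 and 1.90 in mutant 3, and was not listed in mutant 1. Here and in the sparse section before it, controls 2 and 3 stood apart from the other three libraries, control 1 included.

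**Figure D3:**
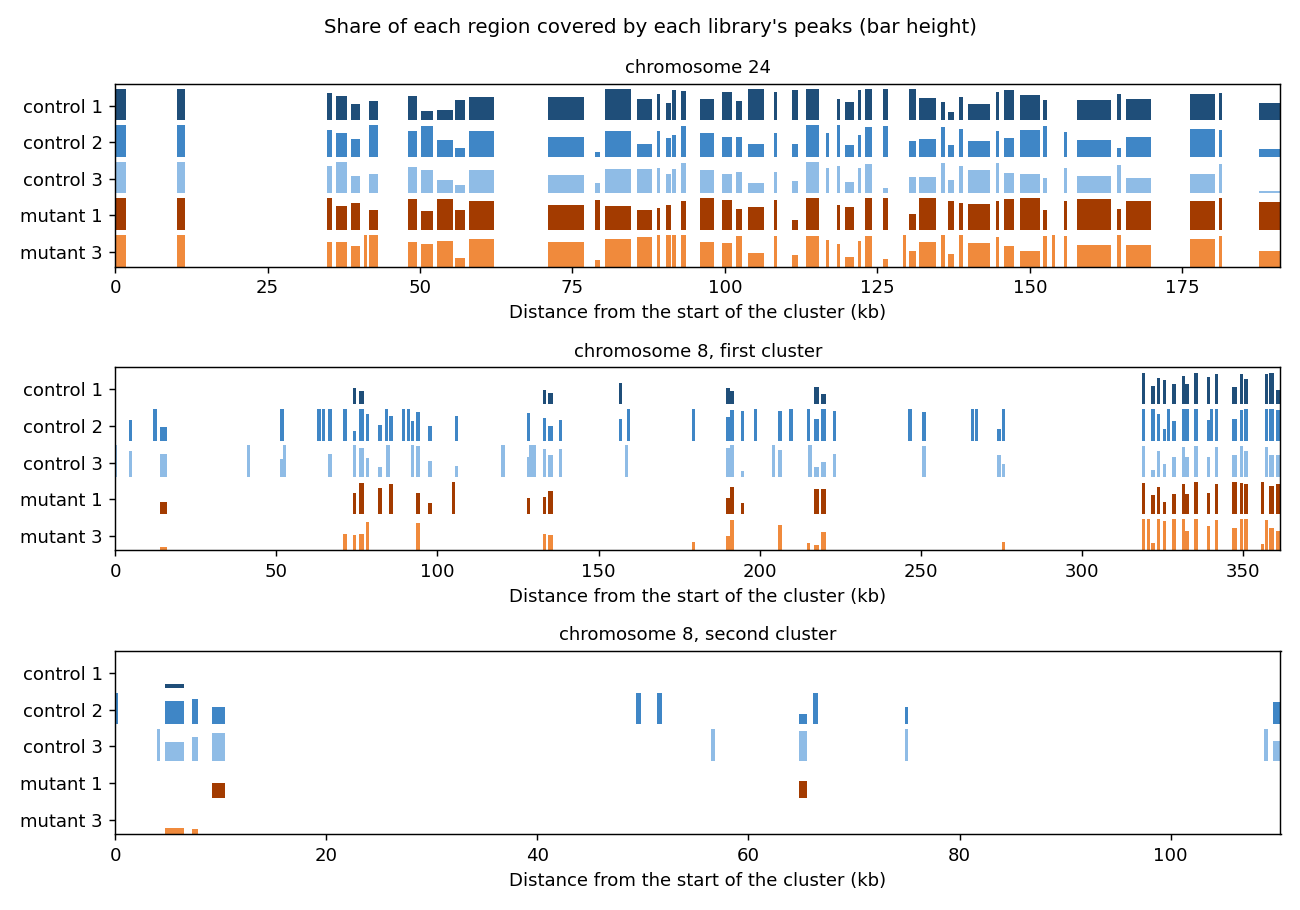
Regions of the chromosome 24 cluster and of both chromosome 8 clusters, by library, against distance from the cluster start in kb. A bar marks a region in which the library had a peak, its height gives the share of the region covered, and narrow regions are widened to stay visible; 43 of 52 chromosome 24 regions and 0 of 13 in the second chromosome 8 cluster have a bar in all 5 libraries.

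Most members recurred. A peak in all 5 libraries was found at 275 of the 490 members (56.1%), against 45.1% of all merged regions of the series. Of the 546 merged regions on the same chromosomes and inside the same 2 Mb margins but outside the clusters, 197 (36.1%) recurred in all 5. Members with a peak in 4, 3, 2 and 1 libraries numbered 43, 51, 43 and 78. Since the lists that gave these counts also formed the clusters, the shares are a description. The 275 common members held 83.2% of the merged length of the clusters, and the 78 single-library members held 3.64%.

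Recurrence went with width. Members in a single library had a median width of 173.5 bp, those in 3 libraries 299 bp and those in all 5 a median of 1248 bp. Of the 72 regions wider than 2 kb, 71 were common to all 5 libraries, while 20 of the 135 under 300 bp were. A merged region grows with each library that adds a peak to it, so the relation is built in to some degree. Position in the cluster made little difference, as 22 of the 40 first or last regions (55%) and 253 of the 450 inner ones (56.2%) were common.

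Most clusters were also found in each list taken alone. The same lists, pooled, had formed the clusters, so this is a description and not an independent recovery. With chains of at least 10 peaks of a single list, 15 of the 20 clusters appeared in each of the 5 lists. Peaks were counted here and not merged regions, so a region listed in pieces counted more than once. The chromosome 21 cluster, for example, appeared in control 1 with 10 peaks in 8 regions. Control 2 and mutant 3 alone gave 19 clusters, control 3 gave 18, control 1 gave 17 and mutant 1 gave 15. The second chromosome 8 cluster appeared in control 2 alone and the third chromosome 16 cluster in mutant 3 alone. By single regions, 13 clusters had at least 10 common members and 15 had more than 50% common members. The highest share was 94.4% in the second chromosome 10 cluster (17 of 18), then 90% on chromosome 18 (9 of 10). In the second chromosome 10 cluster peaks covered 18.8, 22.2 and 19.8 kb in controls 1, 2 and 3, and 23.6 and 19.2 kb in mutants 1 and 3, again overlapping. The lowest shares after the second chromosome 8 cluster were 16.7% on chromosome 25 (3 of 18) and 30.4% in the first chromosome 17 cluster (39955107 to 40015847, 7 of 23).

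The lists numbered 1 had fewer and longer peaks in the clusters. Control 1 had a peak in 64.5% of the members and mutant 1 in 65.5%, against 84.5%, 82.4% and 83.5% in control 2, control 3 and mutant 3. They were low outside as well, with 43.4% of regions called in control 1 and 44.7% called in mutant 1, but mutant 3 with 57.9% stood apart there from control 2 with 73.4% and control 3 with 84.4%. Of the 78 single-library members, 74 belonged to those 3 libraries. At the 275 common members, mutant 1 had more than 1 peak in 5.82% and control 1 in 20%, whereas control 2 had 33.1%, control 3 had 39.6% and mutant 3 had 40.4%. The libraries of each genotype therefore stood on both sides of this difference.

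Some strong members were missing from both lists numbered 1. A peak in control 2, control 3 and mutant 3 alone was the most frequent incomplete pattern, with 32 members (6.53%), against 26 (4.76%) of the 546 regions outside, while 0 members had a peak in control 1 and mutant 1 alone. In 14 of the 32 the −log10 q was at least 20 in each of the 3 lists, and in 5 of the 26 outside. The strongest was chromosome 5, 57975234 to 57975794, with fold enrichments of 6.04 in control 2, 5.74 in control 3 and 7.91 in mutant 3 and −log10 q of 292, 289 and 295. The neighbouring region 57976740 to 57977396 was listed in every library, at folds of 7.06, 6.94, 5.05, 7.08 and 8.26 in controls 1, 2 and 3 and mutants 1 and 3. Further such members were chromosome 17, 39992962 to 39993150 (fold 2.66 to 3.03), and chromosome 17, 45239112 to 45239263 (4.87 to 5.53). The longest peak of 8 of the 14 was under the 162 bp at which the mutant 1 list begins, and that of 5 was under the 139 bp of control 1. The other 6 of the 14 reached 162 bp in at least 1 list. Among them was the chromosome 5 region, with peaks of 558 bp in control 2 and 551 bp in control 3 but 130 bp in mutant 3. These regions were chosen after their values were seen.

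Fold enrichment in the clusters was modest. The median over a library's peaks in the clusters was 2.33, 2.11 and 2.01 in controls 1 to 3, and 2.24 and 2.06 in mutants 1 and 3. The same medians outside were 2.66, 2.11, 1.92, 2.49 and 2.20. Clusters were below the outside in control 1 and both mutants and slightly above it in controls 2 and 3. The difference averaged -0.13 ± 0.17 (SD, n = 5 libraries) and was negative in 3 of 5, with a two-sided exact sign-flip permutation p of 0.25, where 0.063 is the smallest possible. The mean difference was -0.21 at a q of 1e-05 or lower (exact sign-flip permutation p = 0.063). It was -0.22 with the 766 peaks of lowest q per list (exact sign-flip permutation p = 0.063). That p is reached only where all 5 libraries differ in the same direction. Without both lists numbered 1 the mean difference was -0.017 (exact sign-flip permutation p = 1). Fold was not used to form the clusters. Peaks with a q above 0.05 made up 7.97% of cluster peaks and 9.53% of those outside.

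A few members were far stronger than their cluster. The region with the highest mean percentile of fold within its lists was chromosome 17, 39958027 to 39958712, in the first chromosome 17 cluster. Its fold enrichment was 15.4, 11.3 and 9.002 in controls 1 to 3, and 14.1 and 12.6 in mutants 1 and 3. Every library listed it several times above the median fold of its cluster, which was 2.93 to 4.60. With 1 region taken per cluster, chromosome 10, 16831091 to 16831532, came next with folds of 7.57 to 10.4. Chromosome 18, 31615029 to 31615217, had 8.40 to 10.3. Chromosome 17, 45229389 to 45231072, had 7.16 to 10.98, and chromosome 2, 19805851 to 19806778, had 6.89 to 9.69. The chromosome 12 cluster and the first chromosome 16 cluster, among the fullest, had no such peak, and their highest folds in any library were 4.83 and 4.03. In the other 15 clusters the region of highest mean fold percentile had a lower mean percentile. That of the third chromosome 16 cluster, 26005876 to 26007102, had 7.66 to 8.32, that of chromosome 24, 12238685 to 12240104, had 6.92 to 7.32, and that of chromosome 11, 15068809 to 15069228, had 6.82 to 8.61. In the chromosome 8 clusters they were 34863799 to 34865367 (4.69 to 6.10) and 34993845 to 34995637, given above. In the first chromosome 10 cluster, 12112873 to 12114653 had 5.08 to 5.26. The leading regions of the chromosome 12 and first chromosome 16 clusters were 14367385 to 14367928 and 15798703 to 15801645. On chromosome 14, 44453062 to 44453759 had 3.30 to 4.51, and in the second chromosome 16 cluster, 18354394 to 18355313 had 3.89 to 6.48. In the second chromosome 17 cluster, 42619470 to 42620287 had 4.24 to 5.73, and on chromosome 21, 25828189 to 25830013 had 4.19 to 5.99. All of these except 34993845 to 34995637 were listed in all 5 libraries. In 3 clusters the leading region was listed in 3 libraries, namely 52812544 to 52812668 (3.39 to 4.15) and 57975234 to 57975794 on chromosome 5 and 26035703 to 26035946 on chromosome 25 (3.98 to 5.97).

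The widest region of a cluster was seldom its strongest. In the second chromosome 8 cluster alone the same region, 34993845 to 34995637, was both. With only the widest region of each cluster ranked, the leading 5 were given above. After them came that of chromosome 21, 25804874 to 25808883 (4010 bp, fold 2.58 to 3.24). Chromosome 2, 19797948 to 19801949 (4002 bp, 2.28 to 2.93), and chromosome 16, 26064833 to 26068674 (3842 bp, 2.61 to 2.95), followed. Next were chromosome 16, 18297780 to 18301558 (3779 bp, 2.58 to 3.45), chromosome 25, 26048293 to 26052050 (3758 bp, 2.33 to 2.98), and chromosome 5, 52712290 to 52715697 (3408 bp, 2.11 to 2.23). Below them came chromosome 17, 42634348 to 42637343 (2996 bp, 2.32 to 2.51) and 45223719 to 45225905 (2187 bp, 1.75 to 2.19), and chromosome 18, 31592556 to 31594918 (2363 bp, 3.22 to 3.76). Chromosome 14 had 44511688 to 44513894 (2207 bp, 2.42 to 2.88) and chromosome 11 had 15051597 to 15053771 (2175 bp, 2.70 to 2.88). In the first chromosome 8 cluster, 34531362 to 34533425 (2064 bp, 1.69 to 1.93) was listed in 4 libraries. The narrowest of these were chromosome 17, 39983450 to 39985041 (1592 bp, 3.30 to 4.60) and chromosome 5, 57957216 to 57958479 (1264 bp, 4.15 to 5.97).

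Over the 275 common members, the rank correlation between libraries of the highest fold in each region was 0.875 to 0.942 for the 10 pairs. The libraries differed in how often a region held several peaks, as given above. The points share position and width, so the correlation describes the lists and carries no test.

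With all listed peaks, the genotypes overlapped in how much of their called chromatin lay in the clusters. The clusters held 56.3%, 51.7% and 48.7% of the peaks that controls 1, 2 and 3 had on the 24 chromosomes, and 54.2% and 57.0% of those of mutants 1 and 3. The groups overlapped, with means of 52.3 ± 3.83% (SD, n = 3) and 55.6 ± 2.00% (SD, n = 2) and a two-sided exact permutation p of 0.4. With 5 libraries this test cannot give less than 0.2. Covered length in the clusters was 324, 366 and 333 kb in controls 1, 2 and 3, and 380.4 and 338 kb in mutants 1 and 3. The groups again overlapped, with means of 341 ± 22.3 kb (SD, n = 3) and 359 ± 30.2 kb (SD, n = 2) and p = 0.4 in the exact permutation test. Leaving out mutant 1 turned the difference from 17.9 to -3.50 kb. With only peaks at a q of at most 1e-05, the differences were 2.26 percentage points in share and 41.6 kb. Each then had an exact permutation p of 0.2, reached for a positive difference only where both mutants lie above every control.

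Peak width and fold in the clusters overlapped between genotypes as well. The median peak in the clusters was 586, 447 and 409 bp wide in controls 1, 2 and 3, and 833 and 379 bp in mutants 1 and 3, so the mutants held both the highest and the lowest value. Means were 481 ± 93.2 bp (SD, n = 3) and 606 ± 321 bp (SD, n = 2), and the exact permutation test gave p = 0.8. The difference of 125 bp became -102 bp when mutant 1 was left out. For median fold, the controls averaged 2.15 ± 0.16 (SD, n = 3) and the mutants also 2.15, with an SD of 0.12 (n = 2) and p = 1 in the exact permutation test. Leaving out control 1 or mutant 3 made that difference 0.09. Without both lists numbered 1, the difference in covered length was -11.9 kb and that in median width -49.0 bp.

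**Figure D4:**
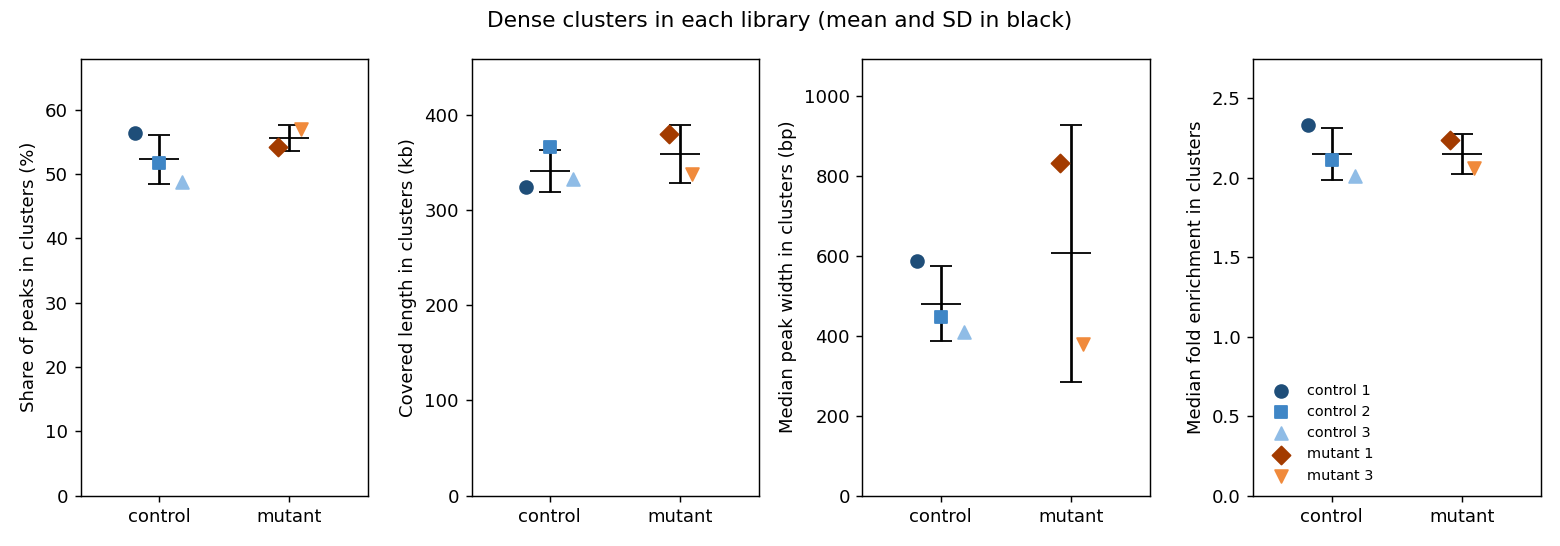
Share of peaks in the clusters (%), covered length in them (kb), median peak width (bp) and median fold enrichment, 1 point per library, with mean and SD in black (3 controls, 2 mutants). The genotypes overlap in all 4 panels, and mutant 1 has the widest median peak, 833 bp.

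Pairs of libraries within and across genotypes had similar overlap. The Jaccard index, base pairs covered in both lists over those covered in either, was 0.623, 0.644 and 0.724 for the 3 pairs of controls inside the clusters. The mutant pair had 0.619, and pairs across genotypes, 6 in number, had a mean of 0.668. The highest value, 0.734, joined control 2 and mutant 3, and the lowest, 0.595, joined control 3 and mutant 1. Outside the clusters the mutant pair had 0.695, the control pairs a mean of 0.679 and the pairs across genotypes a mean of 0.690.

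Among single clusters, the share of a library's covered length did not overlap between genotypes at 3 of 20. The same holds for 20.8% of the 24 dense chains of the whole series. The covered length is that of the whole list, chromosome 4 and unplaced scaffolds included, unlike the share of peaks above. Both mutants were higher at 2 of the 20 (10.0%, against 8.33% of the 24 chains) and lower at 1 (5.00%, against 12.5%). On chromosome 12 the share was 5.03, 4.91 and 4.97% in the controls, and 5.57 and 5.43% in mutants 1 and 3. The mutant mean was higher by 0.53 percentage points, at p = 0.2 in the exact permutation test, its lowest possible value. On chromosome 25 the shares were 0.775, 0.516 and 0.357% in the controls, and 0.881 and 0.936% in the mutants. In the third chromosome 17 cluster they were 1.70, 1.79 and 1.75% in the controls, and 1.68 and 1.37% in the mutants, with mutant 1 close to control 1. Without control 1 the shares did not overlap at 14 clusters (70%, against 66.7% of the 24 chains), and without mutant 3 at 11 (55%, against 58.3%). The 24 chains include these 20 clusters, so their shares lie close by construction and are no independent background.

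In kb, 3 clusters (15%) were higher in both mutants and 0 lower, against 12.5% and 0% of the 24 dense chains, which include the clusters. They were the first chromosome 5 cluster (by 2.25 kb), chromosome 24 (by 10.7 kb) and chromosome 25. As a share of covered length the genotypes overlapped in the first chromosome 5 cluster and on chromosome 24. In the first chromosome 5 cluster peaks covered 19.8, 20.5 and 20.1 kb in controls 1, 2 and 3, and 23.8 and 20.9 kb in mutants 1 and 3. On chromosome 25 they covered 5.71, 4.52 and 2.93 kb in the controls, and 7.46 and 7.36 kb in the mutants, a difference of 3.02 kb with an exact permutation p of 0.2. Mutant 3 had 22 peaks there and the other libraries 11 to 13, and 4 regions of this cluster were called in mutant 3 alone.

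**Figure D5:**
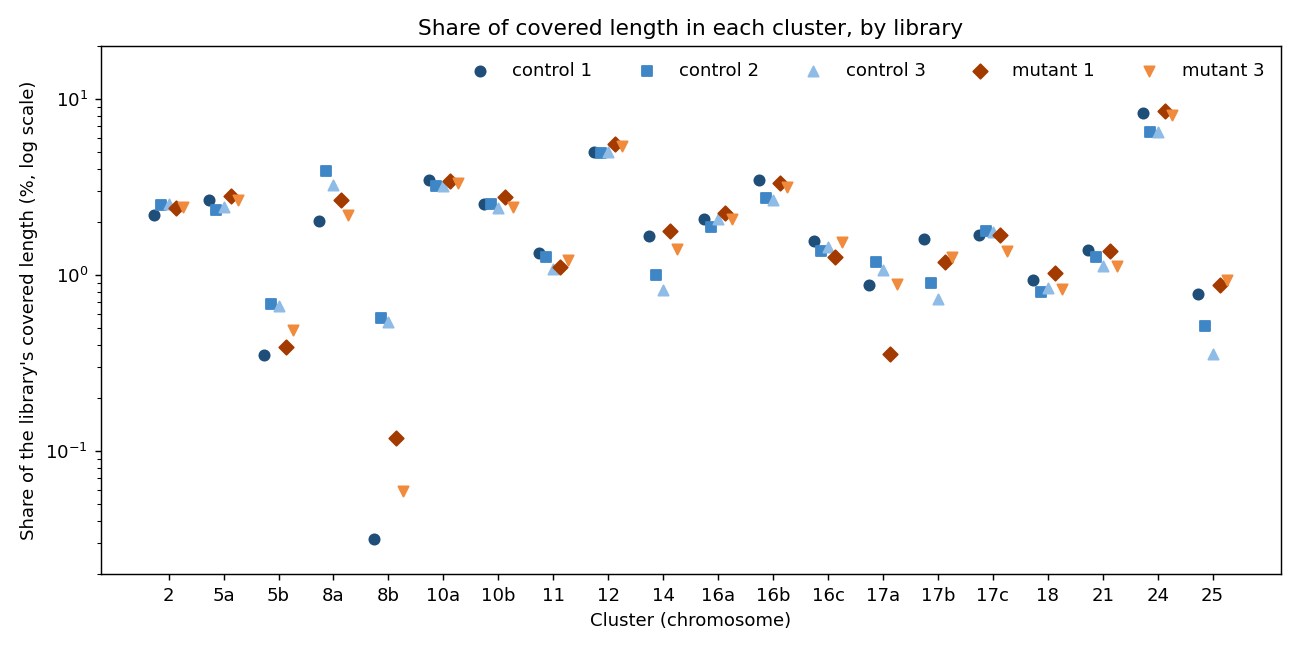
Share of the covered length of each library's whole list that lay in each of the 20 clusters (%, log scale), 1 point per library. Clusters are named by chromosome with letters in order along it. Shares are close in most clusters, and in the second chromosome 8 cluster (8b) they run from 0.032% in control 1 to 0.568% in control 2.

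Clusters also varied unequally between libraries. The highest share was 17.9 times the lowest in the second chromosome 8 cluster, where control 1 had a single peak, and 9.61 times without control 1. It was 3.30 times in the first chromosome 17 cluster but 1.35 times without mutant 1. It was 2.62 times on chromosome 25 and 1.08 times in the first chromosome 10 cluster. In the first chromosome 17 cluster peaks covered 6.43, 10.3 and 8.72 kb in controls 1, 2 and 3, and 3.03 and 7.01 kb in mutants 1 and 3, so that the mutants took up the lowest place and one inside the control range. On chromosome 14 (44437036 to 44515398) they covered 12.4, 8.81 and 6.75 kb in the controls, and 15.1 and 10.99 kb in the mutants. The second chromosome 17 cluster (42619470 to 42681578) had 11.7, 7.92 and 5.97 kb in the controls, and 10.03 and 9.95 kb in the mutants. In the chromosome 14 and second chromosome 17 clusters control 1 lay among or above the mutants and away from the other controls. The second chromosome 16 cluster (18269731 to 18356719) and the chromosome 11 cluster (15049132 to 15076574) varied less, by 1.31 and 1.24 times in share.

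Few members separated the genotypes completely. Both mutants and none of the controls had a peak at 3 members (0.612%), against 0.528% of all merged regions and 0.549% of those outside. All 3 controls and neither mutant had one at 1 member (0.204%), against 0.226% of all merged regions and 0.183% outside. These shares lie near the background. The mutant members were weak, with folds of 1.38 and 1.27 in mutants 1 and 3 at chromosome 8, 34872867 to 34873512. They were 1.53 and 1.74 at chromosome 16, 18348820 to 18349048, and 1.82 and 1.73 at chromosome 17, 42644100 to 42644785. The control member, chromosome 5, 52694890 to 52695124, had folds of 2.48, 1.73 and 1.96 in controls 1, 2 and 3. With mutant 1 left out, 27 members (5.51%) were called in mutant 3 and in no control, against 4.22% of all merged regions and 3.66% outside. With control 1 left out, 16 members (3.27%) were called in controls 2 and 3 and no mutant, against 10.2% of all merged regions and 17.6% outside. That control count was 18 (3.67%) without mutant 3, against 3.47% of all merged regions, and 2 (0.408%) without control 2 or control 3, against 0.377% and 0.302%. The mutant count was 5 (1.02%) without control 1, against 0.83% of all merged regions, and 6 (1.22%) without control 3 or mutant 3, against 0.98% and 2.49%.

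The threshold of 10 regions passed through a continuous range of chains. Exactly 10 regions were held by 3 clusters, the second on chromosome 5, the third on chromosome 16 and that on chromosome 18, with 6, 7 and 9 common regions. Just outside, 7 chains held 9 regions, such as chromosome 14 at 19788743 to 19811541, with all 9 common, and chromosome 7 at 54768175 to 54791115, with 8 common. Another of them, chromosome 25 at 26170630 to 26215084, lay 105 kb beyond the chromosome 25 cluster, with 4 of 9 regions common.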

How the data were processed

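ATAC-seq peak lists of 3 sibling control and 2 uhrf1 hi272 mutant libraries were used, 1 list per library, so replicates were not pooled. The submitters' processing notes name BWA, Picard, Trimmomatic and FastQC 0.11.5, and the builds GRCz10, mm10 and GRCm38.p4; chromosome names in the lists are those of zebrafish. Not given in the sources used here: peak caller, minimum peak length, duplicate removal and Tn5 shift. Each deposited peak carries a fold enrichment over its own library's background (a ratio), a −log10 p-value, a −log10 q-value and a score equal to the whole part of 10 times the latter. The authors' fold and q describe peaks within a list; across lists, medians are set side by side with depth unknown.

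Merging (the same 1326 regions with bedtools 2.31.1), chaining and counting were checked on simulated lists. A region counts as called in a library with any of its peaks. The fold, fold percentile and −log10 q of a region in a library are the highest among its peaks there. Outside regions are the 546 others on the same chromosomes and margins. Library values were compared with two-sided exact permutation tests over the 10 choices of 2 of 5 libraries, and inside with outside by sign-flips. Every cluster was named, with its widest region, its region of highest mean fold percentile and all one-genotype members; other regions were picked after their values were seen, as the text says. Members and lists were chosen with earlier results of these data known. Alternatives were a q of at most 1e-05, the 766 peaks of lowest q per list, 50% coverage of a region, merging within 500 bp, gaps of 25 and 100 kb, chains of 20, ends of 5 Mb, each library left out and a replicate block. Python 3.11.15, numpy 2.4.6, pandas 2.3.3, scipy 1.17.1 and matplotlib 3.10.9 were used.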

Additional observations from a re-analysis of the deposited data

How the results depend on the processing

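No setting could bring an exact permutation p below 0.05 in these libraries, so direction and size are compared. The cause of a change was not tested. The mutant minus control difference in the share of peaks kept its sign in all 15 alternatives but fell from 3.32 percentage points to 0.55 with equal lists and 1.13 with chains of at least 20 regions. That in covered length rose from 17.9 kb to 41.6 kb at a q of at most 1e-05 and 37.3 kb with equal lists. The difference in median fold, -0.0008, took the other sign with peaks merged within 500 bp (0.00051), without both lists numbered 1 (0.0014) and with peaks of at least 162 bp (0.0096), the last 2 settings chosen after seeing the data. It was also positive, and larger, without control 1 (0.089) and without mutant 3 (0.087). Without both lists numbered 1, differences were 6.77 percentage points in share and -11.9 kb in covered length. They were -49.0 bp in width and -0.017 in fold inside minus outside. The shares of 15 clusters (75%) then did not overlap, against 70.8% of the 24 chains, which include the clusters. Mutant members numbered 33 (6.73%), against 4.98% of all merged regions and 4.21% outside. Control members numbered 23 (4.69%), against 11.5% of all merged regions and 18.1% outside. Common members numbered 342. These counts were raised by the smaller number of libraries. Clusters without overlap numbered 7 at a q of at most 1e-05 and 1 with equal lists. Both settings removed peaks but kept the 20 clusters and 490 members found with all peaks. In the second chromosome 8 cluster only control 3 and mutant 3 kept a peak at that q. Mutant members numbered 1 with equal lists and 1 with peaks of at least 162 bp. Control members numbered 0 at that q and 0 with equal lists, and 3 where 50% of a region had to be covered, which left 166 common members. For these settings the shares over all chains and all merged regions were not computed, so the counts are not read as genotype differences. Chains of at least 20 regions left 9 clusters, 344 members and 182 common ones, fewer by construction. Gaps of 25 and 100 kb gave 19 and 20 clusters with 458 and 491 members. Leaving out 1 library moved the differences between 1.55 and 5.35 percentage points in share, -3.50 and 39.3 kb, -102 and 352 bp, -0.089 and 0.089 in fold, and -0.18 and -0.075 in fold inside minus outside. The counts moved between 3 and 14 clusters, 3 and 27 mutant, 1 and 18 control and 275 and 293 common members. With numbers 1 and 3 as a replicate block, control 2 is left out, and the labels do not say that these numbers are pairs. Differences were then 3.05 percentage points, 30.5 kb, 108.5 bp and -0.020 in fold. The share of 8 of 20 clusters moved the same way in both pairs and that of 12 did not. This criterion is other than non-overlap and was met by 45.8% of the 24 dense chains, the 20 clusters included. The block gave 3 mutant (0.612%), 2 control (0.408%) and 279 common members. Over all merged regions the mutant and control calls made up 0.98% and 0.377%. With 2 pairs no check of the pairing was possible. Read depth is unknown, which limits each count: a library can miss an accessible region.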
